A study of Mus musculus with 6 samples.

Results

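The cytochrome P450 genes on a pair of mouse promoter array designs were described in a chromatin immunoprecipitation experiment on TEAD4. A gene was taken when its symbol in the array annotation was Cyp followed by a number, a letter and a number, as in Cyp2e1, and only probes for genomic DNA were used, not the control spots. The rule found 67 of the 16839 genes named on the arrays, 35 on design 1 and 32 on design 2, with 1265 probes among them. The rule used no measured value. The TEAD4 samples were C2C12 cells, a mouse myoblast line, infected as a population with a retrovirus for Flag-HA-tagged TEAD4, and the control was C2C12 cells with the empty vector. All cells were kept in puromycin, differentiated into myotubes for 5 days in 2% horse serum and fixed for 10 min in 0.4% formaldehyde. DNA precipitated with an anti-Flag antibody (IP) was labelled with Cy5 and input DNA with Cy3, so each value is log2 of IP over input, centred on the array's median. The 2 TEAD4 samples are duplicates per the labels, and the control is 1 sample. Tagged TEAD4 came from the retrovirus and untagged TEAD4 would not be precipitated. Nothing said that the duplicates were separate cultures, so the p-values below measure only the spread between these samples, which may be technical. That spread was pooled largely over all windows or genes, so a p-value says little of 1 gene's own duplicates.

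Cytochrome P450 enzymes are heme proteins that insert an oxygen atom into their substrates, most of them with electrons passed on by Por, the P450 oxidoreductase. Members of the Cyp1, Cyp2 and Cyp3 families mainly oxidise drugs and other foreign compounds, the Cyp4 family hydroxylates fatty acids, and smaller families make or break down steroid hormones, bile acids, vitamin D and retinoic acid. Most are known for expression in liver, gut, kidney, adrenal gland or gonad rather than in skeletal muscle. RNA was not measured here, so whether these genes were silent in the myotubes could not be checked. TEAD4 is a DNA-binding factor that recruits the co-activators YAP and TAZ, and the study asked which promoters it occupied in differentiated cells.

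The promoters of 7 P450 genes are shown because they hold the highest and lowest values described below and the widest differences between TEAD4 and control. Each is 250 bases before to 50 bases after the start, from RefSeq on GRCm38.p6, written 5′ to 3′ on the gene's strand. Capitals mark GGAATG, the core of the TEAD recognition sequence, on either strand (CATTCC when read on the other), and TATAAA, the TATA box sequence, on the gene's strand. The motifs do not overlap each other in these promoters.
Cyp4f13, chr17:32947312-32947611, minus strand: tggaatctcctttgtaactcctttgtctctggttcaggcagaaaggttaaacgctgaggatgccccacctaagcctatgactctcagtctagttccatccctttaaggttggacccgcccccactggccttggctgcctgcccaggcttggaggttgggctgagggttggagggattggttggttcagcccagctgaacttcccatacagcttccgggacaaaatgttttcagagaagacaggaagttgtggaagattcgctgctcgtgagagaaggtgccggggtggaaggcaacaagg
Cyp20a1, chr1:60343050-60343349, plus strand: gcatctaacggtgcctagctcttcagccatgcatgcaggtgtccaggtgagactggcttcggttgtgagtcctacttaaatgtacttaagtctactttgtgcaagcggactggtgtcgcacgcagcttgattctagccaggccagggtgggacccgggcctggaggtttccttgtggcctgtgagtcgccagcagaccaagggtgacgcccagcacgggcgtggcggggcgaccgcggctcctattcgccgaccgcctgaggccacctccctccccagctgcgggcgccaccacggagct
Cyp2b19, chr7:26756892-26757191, plus strand: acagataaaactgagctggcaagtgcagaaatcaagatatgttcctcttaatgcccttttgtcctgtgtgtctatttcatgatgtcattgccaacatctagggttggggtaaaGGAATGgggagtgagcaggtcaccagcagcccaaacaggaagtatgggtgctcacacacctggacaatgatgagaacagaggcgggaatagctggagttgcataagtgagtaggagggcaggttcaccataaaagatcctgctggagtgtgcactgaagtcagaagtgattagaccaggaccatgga
Cyp2j11, chr4:96348631-96348930, minus strand: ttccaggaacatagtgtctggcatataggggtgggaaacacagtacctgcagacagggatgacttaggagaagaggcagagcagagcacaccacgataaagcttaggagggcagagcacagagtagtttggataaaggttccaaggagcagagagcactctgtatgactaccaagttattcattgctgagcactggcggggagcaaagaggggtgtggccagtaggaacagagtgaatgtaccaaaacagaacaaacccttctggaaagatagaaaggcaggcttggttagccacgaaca
Cyp2c66, chr19:39113648-39113947, plus strand: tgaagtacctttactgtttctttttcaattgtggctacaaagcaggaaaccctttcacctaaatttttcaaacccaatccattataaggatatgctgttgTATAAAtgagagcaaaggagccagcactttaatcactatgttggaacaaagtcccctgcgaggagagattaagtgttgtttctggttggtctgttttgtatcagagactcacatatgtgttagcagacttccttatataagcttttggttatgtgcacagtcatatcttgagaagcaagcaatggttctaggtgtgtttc
Cyp46a1, chr12:108334066-108334365, plus strand: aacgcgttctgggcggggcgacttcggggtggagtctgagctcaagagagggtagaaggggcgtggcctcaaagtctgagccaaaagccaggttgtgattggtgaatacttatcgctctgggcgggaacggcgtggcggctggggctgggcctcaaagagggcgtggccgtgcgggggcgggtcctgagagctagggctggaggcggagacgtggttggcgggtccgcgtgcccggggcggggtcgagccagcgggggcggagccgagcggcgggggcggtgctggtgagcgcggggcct
Cyp2c38, chr19:39463026-39463325, minus strand: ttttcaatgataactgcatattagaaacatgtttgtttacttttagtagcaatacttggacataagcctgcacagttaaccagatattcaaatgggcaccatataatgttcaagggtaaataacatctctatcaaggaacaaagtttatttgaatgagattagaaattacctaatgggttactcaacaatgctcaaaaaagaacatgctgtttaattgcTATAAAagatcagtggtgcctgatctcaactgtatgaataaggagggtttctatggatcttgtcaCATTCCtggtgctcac
GGAATG began 137 bases upstream of the start in Cyp2b19 and lay on the opposite strand, 34 bases downstream, in Cyp2c38. TATAAA was found in Cyp2c38, 31 bases upstream, and in Cyp2c66, 150 bases upstream. The Cyp46a1 promoter held 31 CpG dinucleotides and Cyp20a1 held 20, against 6 in Cyp4f13, 3 in Cyp2j11, 1 in Cyp2b19, 1 in Cyp2c66 and 0 in Cyp2c38. Neither motif's letters stood in the windows of Cyp4f13, Cyp20a1, Cyp2j11 and Cyp46a1.

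At their promoters the P450 genes lay close to input in the TEAD4 samples. The promoter value, the mean over a gene's probes within 1000 bp of its start where there were at least 3, was available for 55 P450 genes and 15849 genes in all. In TEAD4 sample 1 it ran from -0.48 to 0.38 over the P450 genes with a median of -0.02, and in TEAD4 sample 2 from -0.87 to 0.61 with a median of -0.05. In the control it ran from -1.72 to 1.68 with a median of 0.15. Every TEAD4 value was thus below 2-fold over input, which is 1 on the log2 scale. Such values were rare over all genes too: 0.656% had a TEAD4 mean from 1 to 1.2, and each higher bin of 0.2 held fewer. In the control 11 P450 promoters reached 2-fold (20%), against 45.3% of all genes. The median of the TEAD4 means was -0.05 for the P450 genes and 0.12 for all genes, and the control medians were 0.15 for the P450 genes and 0.90 for all genes. After normexp background correction the P450 medians were 0.03 in TEAD4 and -0.04 in the control, so both signs depend on that choice.

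Both TEAD4 samples were above 0 at 14 of 55 P450 promoters (25.5%, against 54.8% of all genes) and both were below 0 at 22 (40%, against 20.7%). The 733 olfactory receptor genes with a promoter value, another family of clustered tissue-specific genes, lay lower, with a median of -0.26 in TEAD4 and -0.30 in the control. P450 promoters thus stood between the olfactory receptor genes and the array as a whole in both kinds of sample. Within the TEAD4 pair the median SD at P450 promoters was 0.13 and the largest, at Cyp2b19, was 0.47. The SD over the P450 promoters was itself only 0.21 in TEAD4 sample 1 and 0.29 in TEAD4 sample 2. The pair lay on the same side of 0 at 36 of the 55. Across the 55 promoters, which share the same arrays, the correlation between TEAD4 samples 1 and 2 was r = 0.43 (rho = 0.45), and over all 15849 genes it was r = 0.69 (rho = 0.66).

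**Figure D1:**
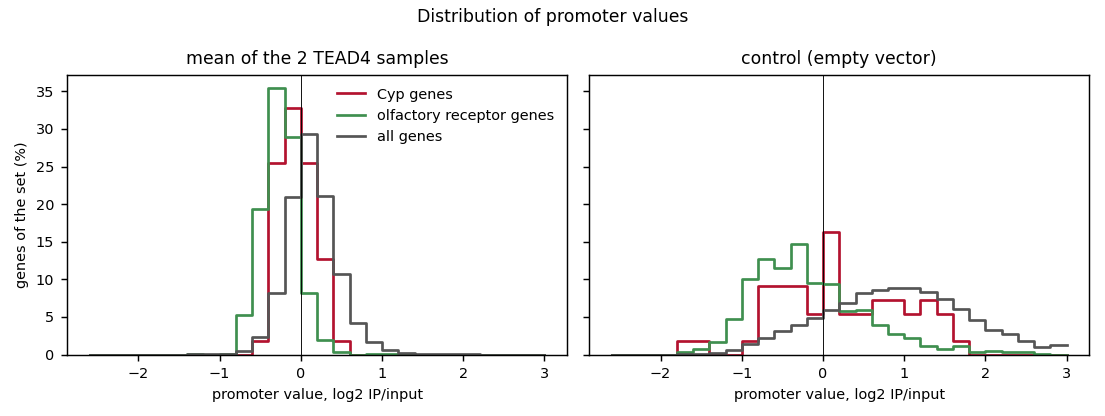
Share of genes (vertical axis, percent of the set) by promoter value (horizontal axis, log2 IP/input, bins of 0.2, with values past either end counted in the end bin), for the mean of the TEAD4 samples at left and the control at right, with lines for P450, olfactory receptor and all genes. The P450 median was -0.05 in TEAD4 and 0.15 in the control, against 0.12 and 0.90 for all genes.

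No P450 gene reached 2-fold over input in both TEAD4 samples in any window, a window being the mean over 3 or more probes that lie within 500 bp of a central one. This is a rule of size with no test. It held for 0 of the 61 P450 genes with a window and for 5.19% of the 16533 genes in all. In TEAD4 sample 1 alone it also held for 0 P450 genes (8.05% of all genes). In TEAD4 sample 2 alone it held for 5, Cyp17a1, Cyp1b1, Cyp2d22, Cyp2j11 and Cyp4f15 (15.5% of all genes). A 1.5-fold threshold was passed in both samples by 3 P450 genes, Cyp20a1, Cyp2j11 and Cyp4a14, the fatty acid hydroxylase Cyp4a14 being named here after its values were seen, and by 20.2% of all genes. P450 genes had fewer windows, with a median of 18 a gene, against 25 over all genes, and 26 of their 61 top windows rested on 3 probes.

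The P450 gene with the largest top window was Cyp4f15, of the Cyp4f group of fatty acid and eicosanoid hydroxylases. Its window centred 2431 bp downstream of the start had 0.54 in TEAD4 sample 1, 1.75 in TEAD4 sample 2 and 0.86 in the control. The second TEAD4 sample was high, the first lay below the control, and the groups overlapped. Cyp2j11, of the Cyp2j epoxygenase group, followed with 0.65 and 1.54 in the TEAD4 samples and 2.09 in the control, in a window 2051 bp upstream. Here both TEAD4 samples were over input and both were below the control. Cyp2d22, of the drug-oxidising Cyp2d group, had 0.20 and 1.80 in TEAD4 and -1.32 in the control, 3213 bp upstream. Cyp17a1, which makes androgen precursors, had 0.11 and 1.61 in TEAD4 and -0.58 in the control, 858 bp upstream. In both genes the height came from the second TEAD4 sample, although neither TEAD4 sample overlapped the control. The top window of Cyp20a1 had nearly equal values, 0.68 and 0.69, in the TEAD4 samples.

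limma, fitted over all windows with a Simes p per gene and Benjamini-Hochberg adjustment over all genes, called 5 of 61 P450 genes higher in TEAD4 than input (8.20%) and 5 lower (8.20%). Over all genes it called 23.9% higher and 11.8% lower. The share called higher was thus smaller among P450 genes than over all genes, which was not tested. The genes called higher were Cyp20a1 (adjusted p = 0.0320), Cyp2d22 (0.0222), Cyp2j11 (0.0134), Cyp4f13 (0.0400) and Cyp4f15 (0.00954), all by limma. The windows behind the calls of Cyp2j11 and Cyp4f15 are those described above. That of Cyp2d22, 2504 bp upstream at chr15:82205931-82206702, had 0.49 and 0.94 in TEAD4 and -0.53 in the control. That of Cyp4f13, centred 21 bp upstream at chr17:32685292-32686244, had 0.38 and 0.81 in TEAD4 and -0.58 in the control. In both genes the 2 TEAD4 samples were over input and the control was below it. That of Cyp20a1, 308 bp downstream at chr1:60287758-60288453, had 0.68 and 0.69 in TEAD4 and 1.35 in the control. These are the coordinates of the array files. Their genome build, not given in the sources used here, may differ from GRCm38.p6, and they are not to be set against the promoter positions above.

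The genes called lower were Cyp2b19, Cyp2c29, Cyp2c44, Cyp2j13 and Cyp4x1, of which the last 4 were named after their values were seen. Cyp2c29 had the lowest p (limma adjusted p = 0.00228), with -0.91 and -0.93 in TEAD4 and -0.37 in the control, 3538 bp upstream. Cyp2c29 and Cyp2c44 belong to the Cyp2c group, known in mice for epoxidation of arachidonic acid. Cyp2b19, described in mouse skin as an epoxygenase, had -0.47 and -1.53 in TEAD4 and -0.99 in the control, 853 bp downstream. In Cyp2c29 both TEAD4 samples were below the control, while in Cyp2b19 the control lay between them. Windows of the other 3 genes called lower ranged between -0.99 and -0.52 in the TEAD4 samples.

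At the promoters, limma called 3 of 55 P450 genes higher than input (5.45%, against 26.1% of all genes) and 3 lower (5.45%, against 5.51%). The higher ones were Cyp4f13, Cyp20a1 and Cyp39a1, an oxysterol hydroxylase of bile acid synthesis. Cyp4f13 had 0.25 and 0.58 in TEAD4 (mean 0.42, SE 0.12) and -0.38 in the control, with a limma adjusted p of 0.00725. Both of its TEAD4 samples were over input, and the control was below. Cyp20a1, a P450 of no settled substrate, had 0.38 and 0.41 in TEAD4 and 0.86 in the control (limma adjusted p = 0.00919). Cyp39a1 had 0.32 and 0.38 in TEAD4 and 0.68 in the control (limma adjusted p = 0.0209). In Cyp20a1 and Cyp39a1 the duplicates nearly coincided and the control was higher than both. With every array brought to the same median absolute deviation, the TEAD4 mean was the higher one, 0.58 against 0.40 at Cyp20a1 and 0.53 against 0.30 at Cyp39a1. After normexp background correction the limma adjusted p against input was 0.616 for Cyp20a1, whose mean was 0.10, and 0.188 for Cyp4f13. Cyp39a1 stayed past the threshold with a mean of 0.59, against -0.11 in the control. That correction also gave 3 higher calls, but the others were Cyp4f14 (mean 0.44, limma adjusted p = 0.00771) and Cyp21a1 (mean 0.34, limma adjusted p = 0.0496). Cyp4f14 was named after its values were seen.

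The promoters called lower than input were Cyp2b19, Cyp2j11 and Cyp2c66, all of the Cyp2 family. Cyp2b19 had -0.21 and -0.87 in TEAD4 and -0.79 in the control (limma adjusted p = 0.00109). Its duplicates lay the widest apart of all P450 promoters, and its SE of 0.13 rests mostly on the pooled spread. Cyp2j11 had -0.34 and -0.43 in TEAD4 and 1.55 in the control (limma adjusted p = 0.0116). Cyp2c66 had -0.48 and -0.21 in TEAD4 and -0.68 in the control (limma adjusted p = 0.0265). The control lay far above both TEAD4 samples at Cyp2j11, below both at Cyp2c66, and between them at Cyp2b19. Cyp2j11 was therefore below input over its promoter and above input 2051 bp upstream. All 3 calls were lost after normexp correction, and also when only probes within 500 bp of the start were used, where the means were -0.08 at Cyp2b19, -0.33 at Cyp2j11 and -0.31 at Cyp2c66.

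**Figure D2:**
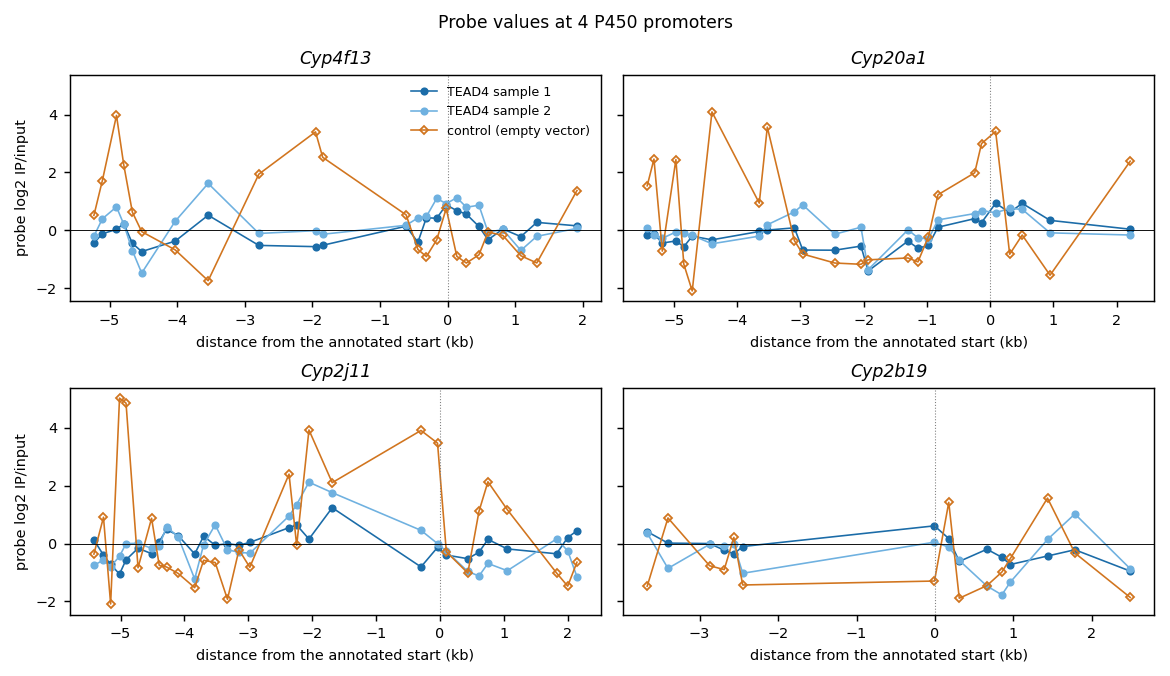
Probe values (vertical axis, log2 IP/input) against distance from the annotated start (horizontal axis, kb) at Cyp4f13, Cyp20a1, Cyp2j11 and Cyp2b19, with a line for each of the TEAD4 samples and the control. Both TEAD4 lines lie above 0 at the start of Cyp4f13 and Cyp20a1 and near 2 kb upstream of Cyp2j11, and the control spans over a wider range in every panel.

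The drug and epoxide families, 40 genes of which 31 had a promoter value, had a median promoter value of -0.13 in TEAD4 and -0.13 in the control. Of these 31 promoters limma called 3 lower than input (9.68%, against 5.51% of all genes) and 0 higher (against 26.1%). These 3 were all of the P450 promoters called lower, and the calls were lost after normexp correction and over 500 bp. Cyp1b1 and Cyp1a2, targets of the aryl hydrocarbon receptor, had 0.20 and 0.14 (Cyp1b1) and -0.07 and -0.05 (Cyp1a2) in the TEAD4 samples, against 1.43 and 0.80 in the control. For both genes the control was far above a TEAD4 pair that lay near input. Cyp1a1 had no promoter value, and its top window, 15894 bp downstream of the annotated start, had 0.36 and 0.22 in TEAD4 and -1.21 in the control. Cyp2e1, the ethanol-inducible P450 of liver, had 0.06 and 0.13 in TEAD4 and 0.14 in the control, so all 3 samples lay near input. Cyp3a11, a main drug-oxidising P450 of mouse liver, had 0.11 and -0.11 in TEAD4 and -0.59 in the control. Cyp3a13 had -0.16 and 0.14 in TEAD4 and -0.67 in the control. At both Cyp3a genes the TEAD4 samples fell on either side of input and the control was below them. Cyp2s1, an extrahepatic P450, had 0.12 and 0.08 in TEAD4 and 1.49 in the control, and Cyp2j6, an epoxygenase, had -0.27 and 0.00 in TEAD4 and -0.32 in the control.

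The fatty acid hydroxylases, 11 genes of which 8 had a promoter value, had a median of 0.18 in TEAD4 and 0.12 in the control. Both TEAD4 samples were over input at Cyp4b1, with 0.07 and 0.43, against -0.56 in the control. Its limma adjusted p against input was 0.115 over 1000 bp and 0.00864 over 500 bp, where its mean was 0.61. Cyp4b1 bioactivates foreign compounds as well as hydroxylating fatty acids. Cyp4v3 lay below input in TEAD4, with -0.17 and -0.15. Its control, 0.36, was above both TEAD4 samples, as at 76.9% of all genes.

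The 4 steroid hormone genes had a median of 0.06 in TEAD4 and 0.61 in the control. Cyp21a1, a hydroxylase of adrenal steroid synthesis, had 0.20 and 0.09 in TEAD4 and 1.16 in the control. Cyp11b2, the aldosterone synthase, had 0.00 and -0.03 in TEAD4 and 0.88 in the control. Cyp19a1, the aromatase that makes estrogens, had -0.12 and -0.29 in TEAD4 and 0.35 in the control. In these 3 genes the control was above both TEAD4 samples. The same held at 30 of 55 P450 promoters (54.5%) and at 76.9% of all genes. Cyp17a1 was the exception, with -0.01 and 0.61 in TEAD4 and 0.01 in the control. Its limma adjusted p against input, 0.0688, was the lowest of these 4 genes. After normexp correction the TEAD4 mean was instead above the control at Cyp21a1 (0.34 against 0.08), Cyp11b2 (0.17 against -0.07) and Cyp19a1 (-0.001 against -0.06).

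The 6 genes of sterols and bile acids had a median of -0.07 in TEAD4 and 0.59 in the control. Cyp7a1, the rate-limiting enzyme of bile acid synthesis, had -0.35 and -0.23 in TEAD4 and -0.13 in the control (limma adjusted p = 0.0621 against input). Cyp7b1, an oxysterol hydroxylase, had -0.16 and -0.43 in TEAD4 and -0.19 in the control. Both genes were below input in all 3 samples. Cyp8b1, which sets the cholic acid share of bile acids, had -0.07 and 0.34 in TEAD4 and 1.18 in the control. Cyp27a1, the mitochondrial sterol hydroxylase, had -0.09 and -0.43 in TEAD4 and 0.49 in the control. Cyp46a1, which clears cholesterol from the brain, had -0.01 and 0.26 in TEAD4 and 1.68 in the control, the highest control promoter of all P450 genes. In these last 3 genes the control was above both TEAD4 samples, as at 76.9% of all genes.

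The 5 genes of vitamin D and retinoic acid had a median of 0.09 in TEAD4 and 1.26 in the control. Cyp26a1 and Cyp26b1 break down retinoic acid. Cyp26a1 had 0.04 and -0.13 in TEAD4 and 1.40 in the control, and Cyp26b1 had 0.19 and 0.22 in TEAD4 and 0.70 in the control. Cyp24a1, which inactivates vitamin D, had 0.09 and 0.10 in TEAD4 and 1.26 in the control. At every one of the 5 promoters the control was above both TEAD4 samples, as at 76.9% of all genes. Cyp27b1, which activates vitamin D in the kidney, had 0.15 and 0.08 in TEAD4 and 1.10 in the control, and Cyp2r1, which carries out the preceding step in the liver, had -0.02 and -0.15 in TEAD4 and 1.32 in the control. The role medians depended on the background correction. After normexp they were -0.02 in TEAD4 and -0.07 in the control for the drug and epoxide families. They were 0.19 and -0.04 for the fatty acid hydroxylases, and 0.20 and -0.07 for the steroid hormone genes. The control medians of the fatty acid hydroxylases and of the steroid hormone genes thus changed side. The medians were -0.03 in TEAD4 and 0.02 in the control for sterols and bile acids, and 0.09 and 0.20 for vitamin D and retinoic acid.

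**Figure D3:**
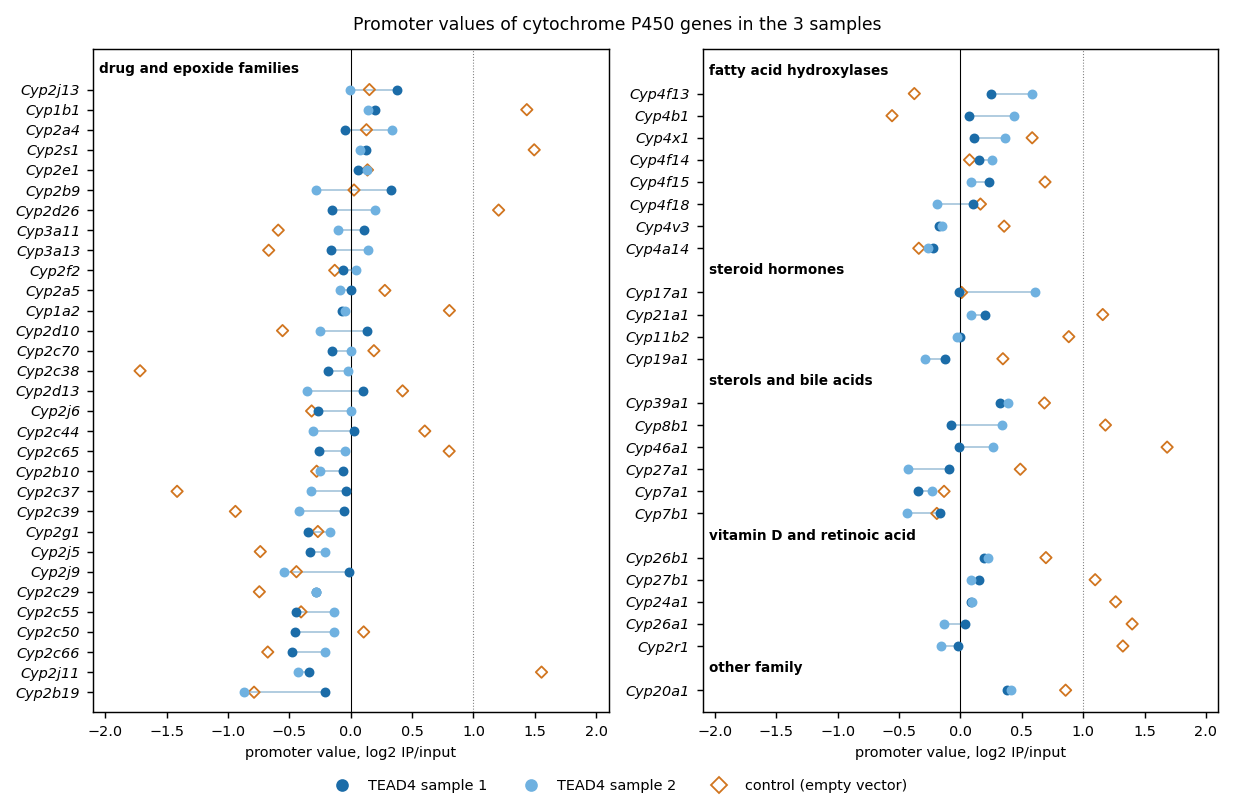
Promoter value (horizontal axis, log2 IP/input) of each of the 55 P450 genes, grouped by role and ordered by the TEAD4 mean, with filled circles for TEAD4 samples 1 and 2 joined by a line and open diamonds for the control. No circle reaches the dotted line at 2-fold over input, and 11 diamonds lie beyond it (20%, against 45.3% of all genes in the control).

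Against the control, limma over windows called 18 of 61 P450 genes higher in TEAD4 (29.5%, against 12.4% of all genes) and 36 lower (59.0%, against 81.0%). By size, both TEAD4 samples exceeded the control 2-fold in some window of 19 P450 genes (29.9% of all genes) and lay 2-fold under it in some window of 37 (81.8%). At promoters, limma called 10 of 55 higher than the control (6.54% of all genes) and 22 lower (62.2%). The median TEAD4 minus control promoter difference was -0.20 for the P450 genes and -0.72 for all genes. The SD over all windows was 0.38 and 0.40 in the TEAD4 pair and 1.04 in the control, and the control IP lay a median 1.81 times over local background at P450 probes, against 4.05 and 4.86 times in the TEAD4 pair. After normexp correction limma over windows called 0 of 61 P450 genes higher than the control (6 at an unadjusted p under 0.05), against 1.98% of all genes, and 4 of 61 lower, against 4.86%. The P450 genes' larger share of higher calls and smaller share of lower calls were thus not seen with that correction.

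The widest differences were at genes where the control, not TEAD4, was far from input. Cyp2c38 had -0.19 and -0.02 in TEAD4 and -1.72 in the control, a difference of 1.61 (SE 0.21, limma adjusted p = 4.13e-09). Cyp2c37 had -0.03 and -0.32 in TEAD4 and -1.41 in the control, a difference of 1.24 (SE 0.21, limma adjusted p = 1.52e-06). In both genes, which lie in clusters of Cyp2c genes, the control was far below input and below both TEAD4 samples. It was below both at 29.1% of P450 promoters and 15.6% of all genes. The values rest on 3 probes at Cyp2c38 and 4 at Cyp2c37. The SE takes the control's spread from the TEAD4 pair, though the control was wider over windows (SD 1.04, against 0.38 and 0.40). With every array brought to the same median absolute deviation, the difference was 0.60 at Cyp2c38 and 0.36 at Cyp2c37. The third largest difference was at Cyp4b1, 0.81 (limma adjusted p = 0.000878). The lowest were -1.94 at Cyp2j11 (limma adjusted p = 3.17e-11), -1.56 at Cyp46a1 (1.14e-08) and -1.45 at Cyp26a1 (5.20e-08), where the control was far above input. With the same median absolute deviation it was 0.62 at Cyp4b1, -1.29 at Cyp2j11, -0.55 at Cyp46a1 and -0.69 at Cyp26a1. After normexp correction the difference was -0.15 at Cyp2c38, 0.20 at Cyp2c37 and 0.26 at Cyp4b1. It was then -0.65 at Cyp2j11, -0.08 at Cyp46a1 and -0.22 at Cyp26a1, and limma called none of these genes.

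In the control itself, which holds no tagged TEAD4, 36 of 61 P450 genes reached 2-fold over input in some window (59.0%, against 85.6% of all genes). The highest were Cyp7a1 with 3.39, 3847 bp upstream, Cyp2c39 with 3.35, 1495 bp upstream, and Cyp2s1 with 3.29, 174 bp upstream. The same windows had -0.62 and -0.05 at Cyp7a1 in TEAD4 samples 1 and 2, -0.37 and -0.03 at Cyp2c39, and -0.02 and 0.05 at Cyp2s1. The control was thus high at windows where both TEAD4 samples were near or below input. Each of the 3 samples was scanned on a day of its own, and only the control was extracted with extended dynamic range, so with 1 control sample these cannot be told apart from the group.

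By distance from the start, P450 probe means varied less than those of other genes. Within 1000 bp upstream, P450 probes averaged -0.05 and -0.02 in the TEAD4 pair and 0.24 in the control, and probes of other genes 0.08 and 0.11 in TEAD4 and 0.73 in the control. Within 1000 bp downstream, P450 probes averaged 0.00 and -0.01 in TEAD4 and 0.32 in the control, and probes of other genes 0.19 and 0.18 in TEAD4 and 1.05 in the control. Between 2000 and 3000 bp upstream the TEAD4 means were alike in both sets, -0.07 and -0.05 for P450 genes and -0.12 and -0.06 for other genes. The highest P450 mean of the control, 0.47 over 111 probes of 37 genes, lay in the bin from -5000 to -4000 bp, the farthest upstream, where the TEAD4 means were -0.14 and -0.17 and other genes had 0.09 in the control.

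**Figure D4:**
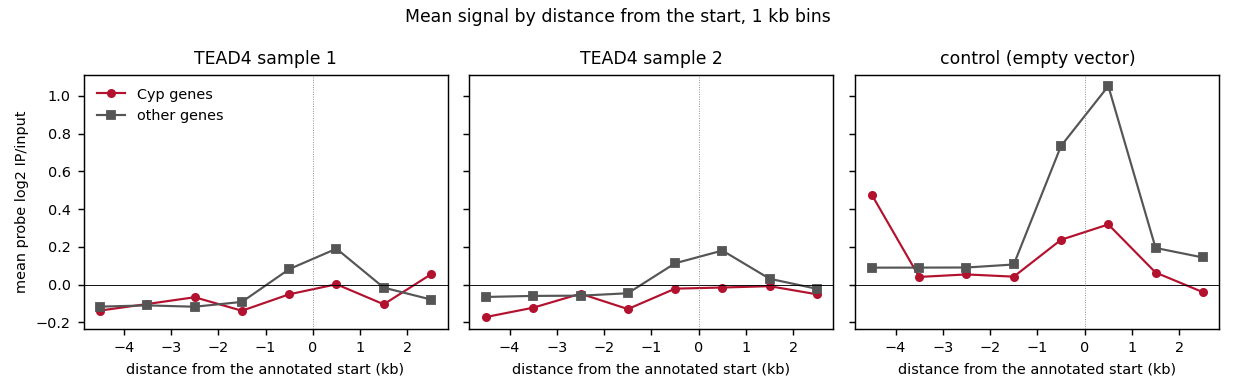
Mean probe value (vertical axis, log2 IP/input) by distance from the annotated start (horizontal axis, kb, 1 kb bins) in TEAD4 sample 1, TEAD4 sample 2 and the control, with lines for P450 genes and other genes. In the bin just downstream of the start the P450 genes lay at 0.00, -0.01 and 0.32, against 0.19, 0.18 and 1.05 for other genes.

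The sequence of the P450 promoters was described from RefSeq. Of the 67 genes, 51 had a promoter entry in RefSeq, with a median of 2 CpG in 300 bases, against 16 over 10698 array genes and 7 over all 27025 symbols with an entry. TATAAA stood on the gene's strand in 20 of the 51 (39.2%, against 8.93% of array genes and 9.77% of all symbols), and GGAATG on either strand in 6 (11.8%, against 15.5% and 16.6%). CpG-rich promoters (an observed-to-expected CpG ratio of at least 0.6 and a GC content of at least 50%) numbered 6 of 51 (11.8%, against 51.2% and 33.4%). Those 6 had a median promoter value of 0.04 in TEAD4 and 1.36 in the control, while 37 CpG-poor P450 promoters had -0.06 in TEAD4 and 0.07 in the control. Over all array genes, CpG-rich promoters had 0.23 in TEAD4 and 1.24 in the control, and CpG-poor promoters 0.00 and 0.46. CpG-rich P450 promoters were thus near the other CpG-rich promoters in the control and lower than them in TEAD4, a difference that was not tested.

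Across the 43 P450 genes with both measures, which share the same arrays, CpG count and control value had r = 0.61 (rho = 0.57), and CpG count and TEAD4 mean had r = 0.29 (rho = 0.33). Over 10113 genes the correlations were 0.53 and 0.35. The 6 P450 promoters with GGAATG had a median TEAD4 value of -0.15 and the 37 without it -0.04, against 0.14 with and 0.12 without it over all genes.

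**Figure D5:**
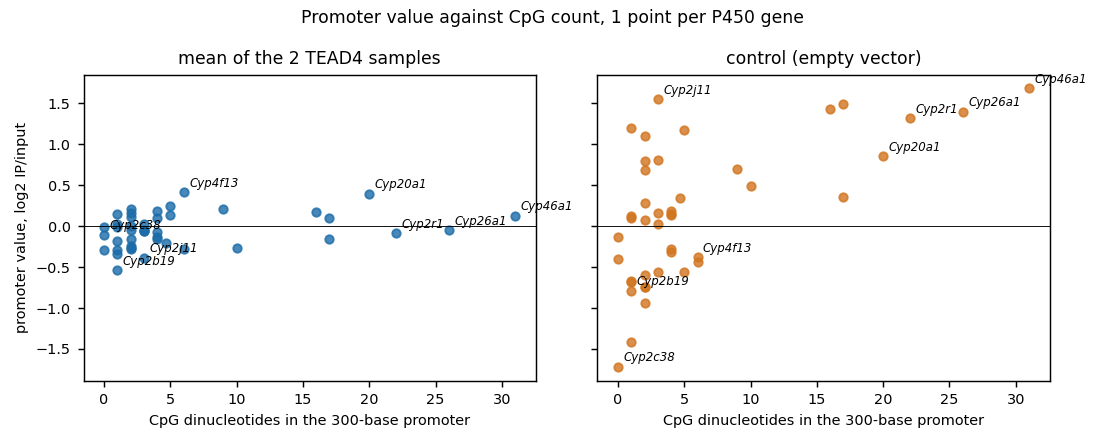
Promoter value (vertical axis, log2 IP/input) against the number of CpG dinucleotides in the 300-base RefSeq promoter (horizontal axis, mean over entries where a gene has several), 1 point for each of 43 P450 genes, for the TEAD4 mean at left and the control at right. The control panel climbs with CpG count (r = 0.61) and the TEAD4 panel is flatter (r = 0.29).

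Many P450 genes sit next to each other: 31 of the 67 lay in 12 clusters of genes within 100 kb of the next, on the arrays' own coordinates. The 23 clustered genes with a promoter value had a median of -0.15 in TEAD4 and -0.34 in the control, and the 32 others had 0.06 in TEAD4 and 0.59 in the control. The clusters named here were picked after their values were seen. In that of Cyp2c55, Cyp2c65 and Cyp2c66 all 3 promoters were below 0 in both TEAD4 samples. So were both promoters of the Cyp2c38 and Cyp2c39 cluster, as at 40% of P450 promoters and 20.7% of all genes. In the pair Cyp4f13 and Cyp4f14 both promoters were above 0 in both TEAD4 samples, as at 25.5% of P450 promoters and 54.8% of all genes. Paralogs in such clusters can share sequence, and cross-hybridisation between them was not tested. The 6 genes with no window, Cyp2a12, Cyp3a16, Cyp3a25, Cyp3a41, Cyp3a44 and Cyp4a10, had 1 to 5 probes each, and Cyp1a1, Cyp2c54, Cyp2d22, Cyp2d9, Cyp4a12 and Cyp4f16 had windows but no promoter value.

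A list of genes that work with or regulate P450 enzymes was set beside them. It also held Cyp51, Tbxas1 and Ptgis, which are P450 enzymes themselves and whose symbols fall outside the rule. Of its 37 genes on the arrays, 5 (13.5%, against 5.19% of all genes) reached 2-fold over input in both TEAD4 samples. Over windows limma called 12 higher than input (32.4%, against 23.9%) and 3 lower (8.11%, against 11.8%), and it called 8 promoters higher (21.6%, against 26.1%). The P450 enzyme Tbxas1 was among the 12. Cyp51 and the P450 oxidoreductase Por (limma adjusted p = 0.00200) were among the 3. The median promoter value of the 37 genes was 0.12 in TEAD4 and 1.13 in the control. The 5, with the values of their top windows, were Hmox1, the heme oxygenase that degrades heme (2.04 and 1.45 in the TEAD4 samples, -0.08 in the control), Cebpb, a liver and fat transcription factor (1.13 and 1.82, against -0.18), Arnt, the partner of the aryl hydrocarbon receptor (1.21 and 1.61, against -0.20), Nr1h3, an oxysterol receptor (1.17 and 1.29, against 1.25), and Rara, a retinoic acid receptor (1.27 and 1.00, against 1.02). The first 3 were above the control in both TEAD4 samples and the last 2 were not. Cyb5b and Cyb5r3, of the cytochrome b5 electron path to P450 enzymes, were among the promoters called higher. They had 0.56 and 0.63 (Cyb5b) and 0.49 and 0.44 (Cyb5r3) in TEAD4, against 1.49 and 1.13 in the control. Promoters of Por, Cyb5, Fdx1 and Fdxr, also on the list, were not called (limma adjusted p of 0.128, 0.491, 0.638 and 0.196). Promoters of 4 other liver genes (Alb, Apoa1, Tat and Ttr) had a median of -0.13 in TEAD4 and 0.12 in the control, and 0 of them reached 2-fold over input in both TEAD4 samples. For scale, Ankrd1, Ankrd2, Map4k4 and Thbs1, which were chosen as enriched in earlier results of these data, had top windows between 2.11 and 2.78 (TEAD4 mean).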

How the data were processed

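ChIP-chip was measured in 2 TEAD4 samples and 1 control sample, each hybridised to both array designs, 4 µg of labelled DNA per channel per the labels. The deposited intensity values came from Agilent Feature Extraction (version 9.5.3.1 in the file headers), run by the authors, with background subtraction and dye normalization. The deposited log10 ratios, equal in the scanner files and in the series matrix, are log10 of IP over input and are not centred. Here log2 of IP over input, taken from those intensities, was centred on the median of each array. Flagged probes and control spots were left out, which kept 471870 probes and 428020 windows. At P450 probes, 100% of IP signals were well above background in the TEAD4 samples and 93.9% in the control. The number of samples limits the precision.

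limma 3.58.1 in R 4.3.3 was fitted within each design over all windows, and over all genes on promoter values, with a two-sided threshold of 0.05 after Benjamini-Hochberg adjustment over all genes. The fit had 1 residual degree of freedom, from the TEAD4 pair, and leaned on a pooled variance (13.4 and 13.9 prior degrees of freedom over windows, 48.0 on promoter values). Its spread stood for that of the 1 control sample too. Simulated data were used to test this step. They drew every sample, the control included, from shuffled differences between the TEAD4 duplicates. They cannot test the calls against the real control, whose values spread wider. A gene took its direction from its window of lowest p. Fold thresholds were rules of size with no test. The members, lists and named genes were chosen with earlier results of these data known.

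The rule for named P450 genes took those 2-fold over input in both TEAD4 samples, the 5 largest top windows, the 3 highest and 3 lowest promoter values and TEAD4 minus control differences, the 3 highest control windows, and well-known members. RefSeq names and promoters are of GRCm38.p6: 65 genes matched by accession and 2 by symbol. The arrays also held Cyp51 and Cyp4a12b, whose symbols fall outside the rule, and the P450 enzymes Tbxas1 and Ptgis, which have no Cyp symbol. Alternatives tried were normexp background correction (offset 50), bright input probes only, a common median absolute deviation, window width, probes per window, distance from the start, the fold threshold and leaving out a sample.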

Additional observations from a re-analysis of the deposited data

How the results depend on the processing

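No P450 gene was 2-fold over input in both TEAD4 samples under any alternative that kept both samples and that fold, against 2.21% to 15.3% of all genes. There were 3 at 1.5-fold (20.2% of all genes) and 0 to 5 with 1 TEAD4 sample left out (8.05% to 15.5%). Windows 2-fold over input in the control, 36 genes as reported, were found in 2 genes after normexp correction (18.97% of all genes), 14 with a common median absolute deviation (46.3%) and 23 at 3-fold (69.5%). For windows 2-fold above the control, 19 genes as reported, the same settings gave 5 (7.97% of all genes), 1 (12.5%) and 0 (4.75%). Other settings gave 7 of 51 for at least 5 probes (16.5%), 5 of 55 within 1000 bp of the start (9.19%) and 41 of 61 at 1.5-fold (63.4%). With 1 TEAD4 sample left out there were 28 to 30, and the share over all genes was not worked out. For windows 2-fold below the control, 37 as reported, normexp, a common median absolute deviation and 3-fold gave 4 (10.8% of all genes), 14 (31.7%) and 24 (61.4%). There were 23 of 55 within 1000 bp of the start (67.2%) and 40 with either TEAD4 sample left out (share over all genes not worked out). limma over windows called 5 genes higher than input as reported, 1 after normexp (12.4% of all genes) and 2 within 1000 bp of the start (21.6%). It called 5 lower as reported, 0 after normexp (5 at an unadjusted p under 0.05, against 0.296% of all genes after adjustment), 3 of 51 with at least 5 probes (10.7% of all genes) and 1 of 55 within 1000 bp of the start (4.01%). Against the control it called 18 higher as reported, 0 after normexp (6 at an unadjusted p under 0.05, against 1.98% of all genes after adjustment), 0 with a common median absolute deviation (1 unadjusted, against 0.774% of all genes after adjustment), 11 of 51 with at least 5 probes (12.9% of all genes) and 10 of 55 on promoter values (6.54%). It called 36 lower as reported, 4 after normexp (4.86% of all genes), 0 with a common median absolute deviation (3 unadjusted, against 0.206% of all genes after adjustment) and 22 of 55 on promoter values (62.2%). Promoters called lower, 3 as reported, were 0 after normexp (0 unadjusted) and 0 over 500 bp (5 unadjusted). The 3 promoters called higher after normexp shared only Cyp39a1 with the 3 as reported. Shares of promoter calls over all genes were not worked out under these settings, so these counts cannot be set against them. The P450 promoter median, -0.0468 in TEAD4, was 0.0290 after normexp, -0.0688 with a common median absolute deviation and -0.0216 over 500 bp, and between -0.0482 and -0.0232 with 1 TEAD4 sample left out. In the control, 0.152 as reported, it was -0.0431, 0.0713 and 0.173 under the same settings. The median of all genes in the control was 0.90 as reported, 0.14 after normexp and 0.41 with a common median absolute deviation. The differences from all genes in limma calls against the control were therefore not kept after normexp or common scaling. The cause of these shifts was not tested. Of the other checks on counts and medians, 51 stayed within 1.5 times the reported count or within the spread between the TEAD4 samples. limma without a TEAD4 sample has no residual degrees of freedom and was not run. No paired analysis was possible because there was 1 control sample, with no number of its own.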
